A study of Mus musculus with 5 samples.

Results

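The genes described here are those with which striated muscle stores, releases and recovers calcium, as measured by microarray in mouse dorsal skin at postnatal day (P) 23. They were *Casq1*, *Casq2* and *Srl* (store), *Ryr1* and *Trdn* (release), *Cacna1s* (voltage sensor), *Atp2a1*, *Atp2a2* and *Sln* (pumps and their inhibitor) and *Pvalb* (cytosolic buffer). The set was chosen by function around 1 measured value, the higher *Casq2* signal of *Clock* mutant skin. The comparison of mutant with wild-type (WT) skin is therefore given for the 10 members as a description. Where members past a threshold are counted, the share of all probe sets stands beside the count, and the count is no test of the set. All 10 members had a probe set that the platform annotation gave to them alone, among 22 probe sets in all, of the 34945 on the array with a single gene symbol.

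The arrays were made from 5 mice, 1 array per mouse. There were 2 *Clock* mutant mice and 3 WT littermates, all labelled as telogen, when hair follicles rest. The only male was *Clock* mutant replicate 1, so that sex and genotype cannot be told apart on its array. The labels give neither zygosity nor time of day. The lines were kept on a C57BL/6J background. CLOCK is a transcription factor of the circadian clock that works as a pair with BMAL1, and the mutation alters how its transcript is spliced. Every tissue carries it, so that a difference in skin need not start there. The comparison asks which transcripts differ in skin labelled as telogen when CLOCK is altered. In the paper's wild-type time course, skin of this age was classed as early anagen, the start of hair growth. The paper also reports that *Clock* mutants were delayed in entering anagen. Whether hair cycle stage differed between the genotypes on these arrays was not tested. The RNA came from whole skin, in which fewer cells of a type and less RNA per cell cannot be told apart.

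In a resting muscle fibre, calcium lies in the sarcoplasmic reticulum, bound to the acidic protein calsequestrin. When the membrane is depolarized, the voltage sensor in the transverse tubule opens the ryanodine receptor, and calcium flows out and starts contraction. Calcium pumps of the SERCA family then return it to the store, and parvalbumin speeds relaxation in fast fibres by binding calcium in the cytosol. Fast fibres rely on *Casq1* and *Atp2a1*, while *Casq2*, *Atp2a2* and *Sln* are best known from heart and slow fibres. Mouse dorsal skin carries a thin sheet of striated muscle, the panniculus carnosus, which is a fast muscle.

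Values are MAS5 signal intensities, and a difference is *Clock* mutant minus WT on the log2 scale with its standard error (SE) from limma. Pearson correlations between arrays lay between 0.950 and 0.960 on the log2 scale, and the arrays' median intensities between 106 and 118. A probe set was tested where its mean log2 signal reached the 40th percentile, an intensity of 56.7. The tissue showed strong signal for both skin and striated muscle. The keratin *Krt10*, of the suprabasal epidermis, ranged from 25182 to 28248, and *Acta1*, skeletal muscle actin, from 21253 to 24292. Markers of slow fibres were mixed. Of 8, 3 were too dim to test, among them *Myh7*, the slow myosin heavy chain, at 6.05 to 16.7 and *Myl2*, a slow myosin light chain, at 38.4 to 51.1. The other 5 passed the filter. The brightest were *Mybpc1*, slow myosin-binding protein C, at 5977 to 6457 and *Csrp3*, muscle LIM protein, at 1574 to 2557. The rest were far dimmer at their brightest probe sets, with *Tnnt1* at 171 to 340, *Myl3* at 69.8 to 114 and *Tnnc1* at 50.3 to 85.3. These genes were named after their values were seen.

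*Casq2*, the calsequestrin best known from heart, had about 2-fold the WT signal in *Clock* mutant skin, while its relative *Casq1* had nearly the same signal in both genotypes. *Casq2* (Entrez 12373) had intensities of 1526 and 1134 in mutant replicates 1 and 2 and of 726, 561 and 581 in WT replicates 1, 2 and 3. Both mutants lay above all WT mice, with a gap of 0.64 on the log2 scale between the lower mutant and the highest WT mouse. The means were 1330 ± 277 (SD, n = 2) and 623 ± 89.8 (SD, n = 3), a log2 difference of 1.09 (SE 0.159), or 2.13-fold. This is the value that chose the set. Over all alternatives tried, including each array left out, it ranged from 0.87 to 1.30. Without the male mutant it was 0.87, a value that rests on 1 mutant array, and the part of sex in the difference was not tested. *Casq2* was measured by a single probe set, whose suffix (_s_at) marks probes that can bind more than 1 transcript, so that the value has no second probe set beside it. The ratio of 3′ to 5′ signal of *Gapdh*, a measure of RNA integrity, was 1.05 and 0.988 in the mutants and 0.86 to 0.955 in WT mice, and its part in the *Casq2* value was not tested.

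*Casq1* (Entrez 12372), the main calsequestrin of fast fibres, had intensities of 14945 and 12463 in the mutants and 13520.4, 13191 and 13827 in WT mice. The mutants lay on either side of the WT mice, and the difference was 0.01 (SE 0.0831). It was -0.12 without mutant replicate 1 and 0.15 without mutant replicate 2. *Srl*, which encodes sarcalumenin, a calcium-binding protein of the same store, had intensities of 10578 and 8392 in the mutants and 9099, 9185 and 9233 in WT mice. Again the mutants lay on either side of a narrow WT range, with a difference of 0.04 (SE 0.095), which was -0.13 without mutant replicate 1 and 0.21 without mutant replicate 2.

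**Figure D1:**
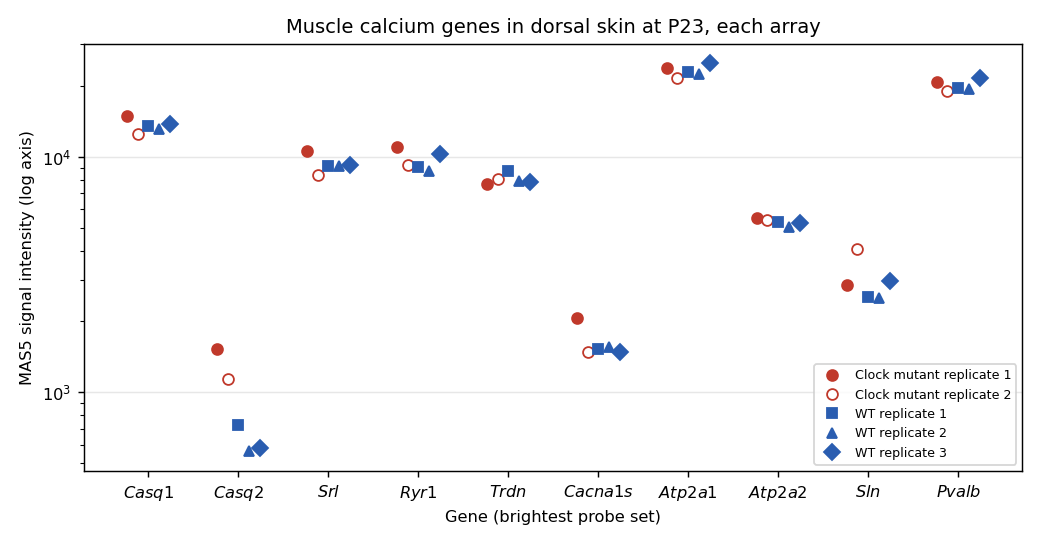
Each point is the MAS5 signal intensity of 1 array (vertical axis, log scale) for each gene's brightest probe set (horizontal axis); red circles are *Clock* mutant mice (filled, replicate 1) and blue symbols are WT mice. The 2 mutants stand above all WT mice for *Casq2* (1526 and 1134 against 561 to 726), while the groups overlap for *Casq1*, and heights of different genes are not comparable.

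The promoters of the calsequestrin genes are shown to set the sequence of *Casq2* beside that of its paralog. The windows run from 250 bases before to 50 bases after the annotated gene start (RefSeq, GRCm38.p6), at chr3:102086165-102086464 on the plus strand for *Casq2* and at chr1:172219846-172220145 on the minus strand for *Casq1*. Capitals mark each CANNTG, the E-box core that basic helix-loop-helix factors such as MyoD and CLOCK recognize in some of its forms.
Casq2: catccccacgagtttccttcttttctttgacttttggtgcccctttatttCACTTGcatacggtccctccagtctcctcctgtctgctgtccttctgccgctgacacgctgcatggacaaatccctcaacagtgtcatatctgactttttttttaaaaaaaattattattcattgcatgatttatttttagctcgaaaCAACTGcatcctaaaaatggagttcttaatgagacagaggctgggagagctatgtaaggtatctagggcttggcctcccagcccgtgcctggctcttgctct
Casq1: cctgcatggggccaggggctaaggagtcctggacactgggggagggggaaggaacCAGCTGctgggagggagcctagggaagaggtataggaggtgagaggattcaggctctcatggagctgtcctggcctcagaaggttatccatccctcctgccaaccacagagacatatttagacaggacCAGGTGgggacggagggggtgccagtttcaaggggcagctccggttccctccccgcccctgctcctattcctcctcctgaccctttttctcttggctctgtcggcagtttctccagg

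Each window held 2 CANNTG matches, which began at positions -200 and -52 from the gene start in *Casq2* and at -195 and -67 in *Casq1*. At least 1 match lay in 5 of the 7 windows that the table holds for 6 members, and in 72.3% of all 32851 promoters. The form CACGTG, which CLOCK and BMAL1 bind, is one of the CANNTG words, and both strands were searched. None of the 7 windows held it (*Pvalb* has a pair of starts), against 7.15% of all promoters, which says only that these letters are not in these windows. A MEF2 motif, of a factor of muscle genes, began at position -69 of *Casq2*, and 1 window of *Pvalb* also held one, at -180. Of all promoters, 3.19% did. *Casq1* had no MEF2 match in its window.

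The genes of calcium release differed little between the genotypes. *Ryr1*, the ryanodine receptor of skeletal muscle, had intensities of 11027 and 9254 in the mutants and 9021, 8731 and 10317 in WT mice at its brighter probe set. The groups overlapped, with a difference of 0.11 (SE 0.0989), which was -0.01 without mutant replicate 1. The dimmer *Ryr1* probe set differed by 0.06, at intensities of 293 to 329 over all arrays. *Trdn*, triadin, which anchors calsequestrin to the ryanodine receptor, had 6 probe sets, and 4 were bright enough to test.

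The brightest *Trdn* probe set had intensities of 7645 and 8033 in the mutants and 8701, 7876 and 7814 in WT mice. The difference was -0.05 (SE 0.075) and turned to 0.04 after median centring of the arrays. The next brightest differed by -0.07, with the mutants (5248 and 5537) just below all WT mice (5576 to 5739), and the others tested by -0.15 and 0.10. The untested *Trdn* probe sets had intensities of 5.88 to 67.8. No *Trdn* probe set thus showed a difference of the size seen for *Casq2* above the intensity filter.

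*Cacna1s*, the pore-forming subunit of the voltage sensor, had intensities of 2070.1 and 1481 in the mutants and 1530, 1552 and 1479 in WT mice. Mutant replicate 1, the male, stood above the rest, and mutant replicate 2 lay within the WT range. The difference of 0.20 (SE 0.133) was -0.04 without mutant replicate 1 and 0.45 without mutant replicate 2.

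*Atp2a1*, SERCA1, the calcium pump of fast fibres, had intensities of 23730.2 and 21624 in the mutants and 22965, 22516 and 24930.5 in WT mice. The groups overlapped, with a difference of -0.05 (SE 0.0713), and of 0.04 after median centring. *Pvalb*, parvalbumin, had intensities of 20789 and 19069 in the mutants and 19635, 19362 and 21580.0 in WT mice. Its difference was -0.02 (SE 0.0727), and 0.07 after median centring. Among 45037 probe sets, *Atp2a1* ranked between 5 and 14 and *Pvalb* between 20 and 51 on each array, with the highest signals at 25769 to 29617. Whether signals so close to the top are compressed was not tested.

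*Atp2a2*, SERCA2, a pump with both a heart and slow-fibre form and a form found in most cells, had 6 probe sets that did not move one way. At the brightest, the mutants had 5495 and 5410.0 and the WT mice 5267, 5027 and 5248, a difference of 0.07 (SE 0.069). At the next brightest the mutants had 3006 and 3002 against 2743 to 2874 in WT mice, a difference of 0.10 (SE 0.0751). At both of these the mutants lay narrowly above all WT mice.

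A dimmer *Atp2a2* probe set went the other way, at 728 and 776 in the mutants against 830 to 946 in WT mice, a difference of -0.22 (SE 0.108). The others tested differed by -0.02 and -0.13, and 1 was too dim to test, at 14.5 to 43.9. Which *Atp2a2* transcript each probe set reads was not determined here.

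*Sln*, sarcolipin, a small membrane protein that inhibits SERCA pumps, had intensities of 2859 and 4064 in the mutants and 2546, 2526 and 2968 in WT mice. Here mutant replicate 2 stood apart, and replicate 1 lay within the WT range, so that the groups overlapped. The difference was 0.35 (SE 0.143), and 0.10 without mutant replicate 2. The other *Sln* probe set was too dim to test, at 3.72 to 27.4. The mutant that was higher for *Sln* was the lower of the pair for *Casq2*.

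Of the 22 member probe sets, 18 passed the intensity filter. Their log2 differences ran from -0.22 to 1.09, and without *Casq2* from -0.22 to 0.35. The median was 0.03, beside -0.02 over all 27022 tested probe sets. In limma, 0 member probe sets passed the adjusted threshold of 0.05, beside 0.0888% of all tested probe sets. At an unadjusted p under 0.05, 2 were higher (*Casq2* and *Sln*) and 0 lower, beside 4.09% higher and 6.71% lower of all. The groups did not overlap, with the mutants higher, at 3 (*Casq2* and 2 of *Atp2a2*), beside 12.8% of all, and with the mutants lower at 2 (1 each of *Trdn* and *Atp2a2*), beside 15.1%. Since *Casq2* chose the set, nothing is read from these counts. Taking the brightest probe set per gene, mutant replicate 1 was above mutant replicate 2 for 8 of 10 members and below it for *Trdn* and *Sln*, while over all genes it was above for 52.9%.

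**Figure D2:**
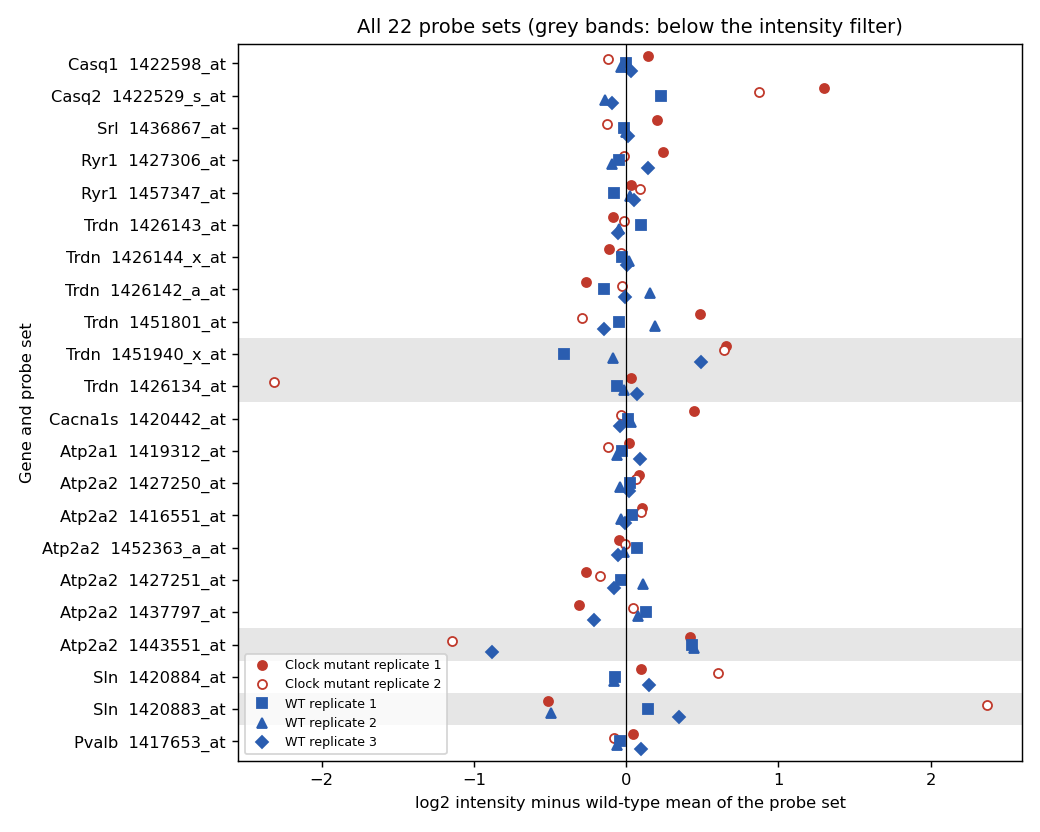
Each row is 1 of the 22 probe sets of the 10 genes (vertical axis), and each point gives 1 array's log2 intensity after subtracting the WT mean of that probe set (horizontal axis); red circles are *Clock* mutant mice (filled, replicate 1), blue symbols are WT mice, and grey bands mark the 4 probe sets below the intensity filter. Among the 18 others, both mutants lie far from the WT mice for *Casq2* alone, at 1.30 and 0.87, the gene whose difference chose the set. The widest spreads lie in the grey bands.

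The other genes of excitation-contraction coupling and calcium handling were listed by function. Of 33 genes, 27 could be tested, each at its brightest probe set, and none rose or fell in limma after adjustment, beside 0.116% of 12955 genes. At an unadjusted p under 0.05, 1 was higher and 0 were lower (5.24% and 4.78% of all genes). Without overlap of the groups, 1 was higher and 1 lower (15.7% and 12.3% of all genes). The median difference was 0.06, beside 0.02 over all genes. It was 0.30 without mutant replicate 2 and -0.06 without mutant replicate 1, and 21 of the 27 genes had more signal in mutant replicate 1 than in replicate 2.

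The gene with the smallest p was *Asph*, whose products include junctin, a partner of triadin and calsequestrin at the ryanodine receptor. At its brightest probe set the mutants had 4341 and 3584 and the WT mice 2745, 2748 and 3435, with both mutants above all WT mice. The difference was 0.41 (SE 0.123, limma adjusted p = 0.317). Its probe sets disagreed. The second was also higher in both mutants, by 0.30 (adjusted p = 0.435), and another was lower in both, by 0.27 on the log2 scale (a difference of -0.27, adjusted p = 0.406). With the mean of its probe sets *Asph* was at 0.07. Which *Asph* product each probe set reads was not determined here.

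None of the further genes named by the smallest p passed after adjustment. *Orai1* and *Stim1*, the channel and the sensor of calcium entry from outside the cell, differed by -0.21 (SE 0.0988, adjusted p = 0.488) and -0.31 (SE 0.156, adjusted p = 0.503) at their brightest probe sets and by 0.08 and -0.01 at the others. For *Orai1* both mutants (986 and 987) lay below all WT mice (1092 to 1225) at the brightest probe set, while for *Stim1* the groups overlapped and the difference was -0.09 without mutant replicate 1. *Hrc*, a histidine-rich calcium-binding protein of the store, differed by 0.28 (adjusted p = 0.524) and *Cacng1*, a subunit of the voltage sensor, by 0.24 (adjusted p = 0.574). For both, mutant replicate 1 was the highest of all 5 mice, and without it they were at 0.03 and 0.01. *Jph2*, a junctophilin that ties the tubule to the store, differed by 0.21 (adjusted p = 0.503) at its brightest probe set, and by 0.09 without mutant replicate 1. Its other, dimmer probe set was lower in both mutants (72.0 and 87.0 against 139 to 194, difference -1.08, adjusted p = 0.181), so that the probe sets pointed opposite ways.

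Markers of muscle fibres overlapped between the genotypes in their summed signal. Of 28 marker genes of muscle fibres 25 could be tested. The sum was 281653 to 305404 in the mutants and 293551 to 321658 in WT mice. The 5 slow-fibre markers tested summed to 8027 to 9172 over all arrays. As intensities of different genes are not comparable, this does not measure the share of slow fibres. Some of the brightest genes of the full sum, *Tnni2* and *Myh4* among them, ranked within the top 12 on every array. Whether signals so close to the top are compressed, which would hide a difference in the sum, was not tested. The median difference over the 25 markers was -0.03, and 0.06 after median centring. It was -0.06 over 10 fast-fibre markers (0.03 after median centring), -0.03 over 10 general markers and -0.003 over 5 slow-fibre markers, while 3 of the 8 slow-fibre markers, *Myh7* and *Myl2* among them, were too dim. Set against the median of the 25 markers on the same array, *Casq2* lay 1.31 and 0.97 above the WT mean in the mutants, and at 0.28, -0.10 and -0.18 in WT mice, given as a description since *Casq2* was chosen for its difference. The 9 other members had array medians between -0.04 and 0.10.

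**Figure D3:**
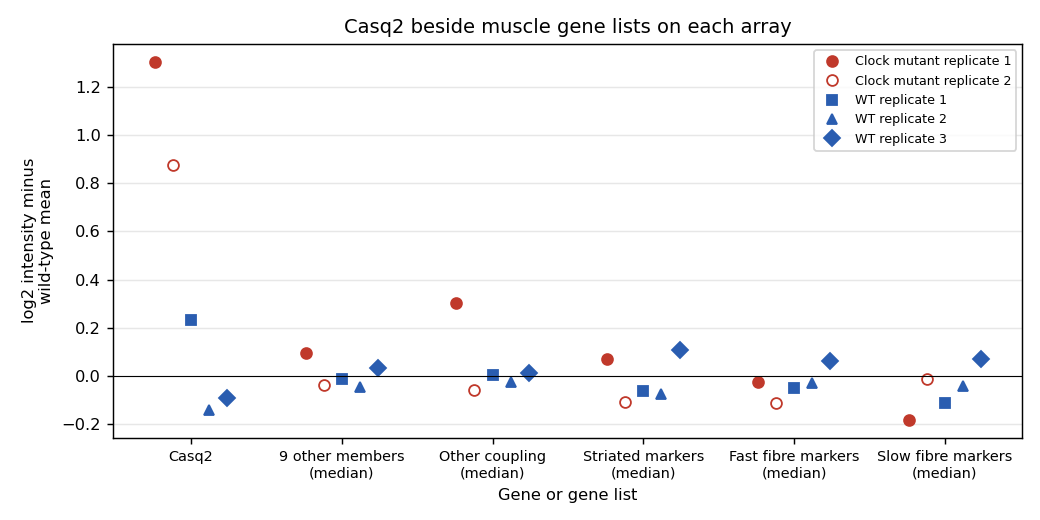
Each point is 1 array, with log2 intensity minus the WT mean (vertical axis) for *Casq2* and, as the median over genes, for the 9 other members, the other coupling genes and the fibre marker lists (horizontal axis); red circles are *Clock* mutant mice (filled, replicate 1) and blue symbols are WT mice. The mutants stand at 1.30 and 0.87 for *Casq2*, while the marker medians of all arrays lie between -0.18 and 0.11 and the coupling genes reach 0.30 in mutant replicate 1.

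No fibre marker passed the adjusted threshold in limma, beside 0.116% of all genes. At an unadjusted p under 0.05, 2 of the 25 were higher and 3 lower, beside 5.24% and 4.78% of all genes. *Tcap*, telethonin, a protein of the sarcomere's Z-disc, had the smallest p. It had 6271 and 6158 in the mutants and 8979, 8953 and 11073 in WT mice, with both mutants below all WT mice (difference -0.63, SE 0.0986, adjusted p = 0.0778). The adjusted p was 0.047 with quantile normalization and 0.0119 with the replicate number as a block, in which WT replicate 3 has no partner and does not enter the difference, and ranged from 0.0119 to 0.421 over the alternatives. *Ckmt2*, the mitochondrial creatine kinase of muscle, had 7149 and 5558 in the mutants against 4419 to 5148 in WT mice (difference 0.41, SE 0.113, adjusted p = 0.3), and differed by 0.23 without mutant replicate 1.

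*Mb*, myoglobin, which is rich in oxidative fibres, differed by 0.55 (SE 0.227, adjusted p = 0.44), mostly through mutant replicate 1 (5701 against 3057 in replicate 2). It was at 1.00 (adjusted p = 0.0386) without mutant replicate 2 and at 0.10 without replicate 1, and its adjusted p ranged from 0.0386 to 0.95 over the alternatives. *Myh2*, the fast oxidative myosin, had a difference of -0.53 (SE 0.184, adjusted p = 0.376), again mostly through mutant replicate 1 (5227 against 8369), with -0.87 (adjusted p = 0.0448) without replicate 2 and -0.19 without replicate 1, and an adjusted p of 0.0448 to 0.894 over the alternatives. *Tnnt1*, slow troponin T, had a difference of -0.52 (SE 0.207, adjusted p = 0.43), which was -0.24 without mutant replicate 1 and -0.80 without mutant replicate 2. *Myh4*, the fastest myosin, differed by -0.11 (adjusted p = 0.529) at its brightest probe set, among the brightest on the array. At its other probe set the mutants (5486 and 5322) lay further below the WT mice (7444 to 9248), a difference of -0.60 (SE 0.0944, adjusted p = 0.0778). With the mean of its probe sets *Myh4* was at -0.36 (adjusted p = 0.123).

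**Figure D4:**
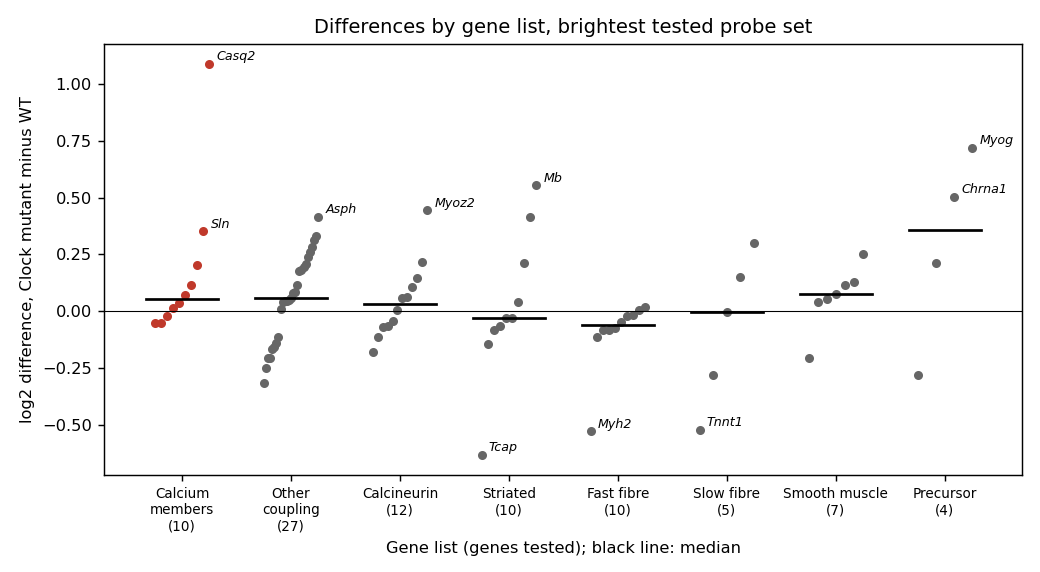
Each point is the log2 difference of 1 gene between *Clock* mutant and WT skin (vertical axis) at its brightest tested probe set, by gene list (horizontal axis, with the number of genes tested); red points are the calcium genes and black lines are list medians. *Casq2*, whose difference of 1.09 chose the set, stands above every other gene plotted. The medians of the other muscle lists lie between -0.06 and 0.07, save for 0.36 over 4 precursor genes.

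Calcineurin, a phosphatase switched on by calcium, and its NFAT and MEF2 effectors help set fibre type. At each gene's brightest probe set, none of the 12 genes of this list passed after adjustment in limma, beside 0.116% of all genes. The median was 0.03. At an unadjusted p under 0.05, 0 were lower and 1 gene was higher, beside 4.78% and 5.24% of all genes. The higher gene was *Myoz2*, calsarcin-1, a Z-disc protein of slow fibres and heart that binds calcineurin. It had 2053 and 2330 in the mutants and 1725, 1463 and 1644 in WT mice, with both mutants above all WT mice (difference 0.44, SE 0.104, limma adjusted p = 0.23). Dimmer probe sets of the list did not all move with the brightest. For *Rcan1*, the brightest probe set differed by 0.22, with both mutants above all WT mice. Its other probe set differed by -0.32, with both mutants below all WT mice. *Nfatc1* differed by 0.15 at its brightest probe set and by -0.42, -0.81, 0.10 and 0.60 at the others. At -0.42 and -0.81 both mutants lay below all WT mice, and at 0.60 above them. *Nfatc2* differed by -0.18 at its brightest and by -0.69 and 0.22 at the others tested, and none of these passed after adjustment.

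Across the array, 5 genes that are not members had profiles nearest to that of *Casq2*, by the Euclidean distance of log2 values centred on each gene's mean over the 5 arrays, among 12945 genes. These were *Th* (0.22), tyrosine hydroxylase, *Ddc* (0.28), aromatic amino acid decarboxylase, *Ly6g6g* (0.29), *Apoc4* (0.31), an apolipoprotein, and *Tfrc* (0.32), the transferrin receptor. Their differences ran from 0.82 to 0.95, and none was on the muscle lists. *Th*, the nearest, had intensities of 340 and 219 in the mutants and 160, 130 and 135 in WT mice, with both mutants above all WT mice. As likeness to *Casq2* chose these genes, their differences were not tested.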

How the data were processed

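RNA of dorsal skin was hybridized to 1 Affymetrix mouse array per mouse (2 *Clock* mutant, 3 WT). The authors deposited linear MAS5 signal intensity per probe set, with each array scaled by a single factor per the labels' tool. The sources used here give neither version nor target. Of 45101 probe sets, 64 controls were left out. Genes were named from the platform annotation, and probe sets with several symbols (932) or none (9160) named no gene. All 108 list genes matched a RefSeq symbol, and 103 had a probe set.

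Intensities under 1 (2441 values) were set to 1, log2 was taken, and probe sets under the 40th percentile of mean log2 signal (18015) were left out. Mutant and WT arrays were fitted with limma 3.58.1 (R 4.3.3; two-sided moderated test with an intensity trend, 6.04 prior degrees of freedom), with Benjamini-Hochberg adjustment over 27022 probe sets. The step was checked on data made with known differences and with noise drawn independently for each probe set and array. There, 46.6% of log2 differences of 1 and 84.5% of those of 2 passed the adjusted threshold. Spread shared by the probe sets of an array was not part of the made data, so these rates need not hold for the arrays here. A gene that did not pass may still differ. A gene stands for its brightest tested probe set. The number of arrays limits the precision. The moderated test sets a difference against a variance that joins the spread between these mice with that of other probe sets of like intensity. An SE can therefore be smaller or larger than these mice alone would give.

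The members and lists were chosen with earlier results of these data known. The naming rule covers all members, list genes past the threshold or among the 6 smallest p, and the 5 profiles nearest to *Casq2*. Not every gene that it covers is printed. Of the fibre, calcineurin and precursor lists only some are, and of the smooth muscle list, given as a group, none. Alternatives tried were each array left out, the replicate number as a block, averaging a gene's probe sets, no trend, a filter percentile of 60 or none, adding 32 before the log, median centring and quantile normalization.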

Additional observations from a re-analysis of the deposited data

How the results depend on the processing

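Among member probe sets, 0 passed the adjusted threshold. Under median centring and under the replicate block 1 did, and 0 to 1 with each array left out. In each such case it was *Casq2*, and as its difference chose the set, nothing is read from these calls. The number of member probe sets without overlap was 5, and 5 to 13 with an array left out, which fewer arrays alone can raise. The member median of 0.03 was 0.12 after median centring and -0.022 to 0.065 with an array left out. The coupling median was -0.057 to 0.30 with an array left out, and 0 coupling genes passed in any alternative. After median centring the median was 0.060 over fibre markers and 0.028 over fast-fibre markers. The slow-fibre median was -0.31 with no filter and -0.18 to 0.033 with an array left out. With the mean of its probe sets *Jph2* was at -0.43, and *Myog* was at -0.23 to 1.67 with an array left out, the lowest without mutant replicate 1. Over all probe sets, 24 passed, against 10 with no filter, 0 without the trend and 0 to 239 with an array left out. The cause of these shifts was not tested.

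The replicate numbers were not shown to pair the mice. Same-numbered mutant and WT arrays correlated at 0.0078 and 0.0986 in their deviations from group means. With the numbers as a block, which leaves WT replicate 3 out of the difference, 106 probe sets passed the adjusted threshold in place of 24, and *Casq2* was at 1.04.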

Other observations

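Genes of muscle precursors and of uninnervated or growing fibres were low in signal. Of 8 such genes 4 could be tested, and none passed after adjustment in limma, beside 0.116% of all genes. At an unadjusted p under 0.05, 0 were lower and 1 gene was higher, beside 4.78% and 5.24% of all genes. That gene was *Chrna1*, a subunit of the acetylcholine receptor, with intensities of 629 and 491 in the *Clock* mutants and 454, 298 and 444 in WT mice (difference 0.50, SE 0.202, adjusted p = 0.431), and a difference of 0.33 without mutant replicate 1. *Myog*, myogenin, a factor of muscle differentiation, had 337 in mutant replicate 1, the male, and 65.6 to 144 in the other 4 mice, a difference of 0.72 (SE 0.519, adjusted p = 0.641) that was -0.23 without that array. *Myh3*, embryonic myosin, was at 23.3 to 41.6 and *Pax7*, of satellite cells, at 18.8 to 76.2 over all arrays and probe sets, too dim to test. In smooth muscle, as of the hair erector muscles and vessels, none of 7 genes passed after adjustment, beside 0.116% of all genes, and the median was 0.07. At an unadjusted p under 0.05 there were 0, beside 5.24% higher and 4.78% lower of all genes.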
